A study of Mus musculus with 24 samples.

Results

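SN-011, a small-molecule antagonist of STING, was given to *Trex1*-/- mice, and the changes in gene expression that followed were compared here between 2 organs, the heart and the stomach. The samples were taken by their tissue labels, 12 of the 24 RNA-Seq samples of the series, with 6 from the heart and 6 from the stomach. In each tissue 3 samples came from mice given SN-011 and 3 from control mice, and every mouse, controls included, lacked *Trex1*. No wild-type group was part of these samples, so a change cannot be placed on a scale between diseased and healthy tissue. The labels describe SN-011 at 5 mg/kg, 3 times per week over 4 weeks, with untreated controls. The study's methods instead give 10 mg/kg by intraperitoneal injection each day over 2 weeks, starting at 1 month of age, with vehicle for the controls, so the schedule is uncertain and samples were grouped by tissue and treatment alone. For every gene the question was whether the log2 change with SN-011 in the heart differed from that in the stomach, which is the interaction of treatment and tissue. A positive difference means that the heart change lay above the stomach change, and a negative one that it lay below.

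TREX1 is a DNase that clears DNA from the cytosol. Without it, self DNA activates the sensor cGAS, which signals through STING to switch on type I interferon and, downstream, the interferon-stimulated genes, and *Trex1*-/- mice develop inflammation of several organs, most severely the heart. The heart is rich in mitochondria and burns mainly fatty acids, whereas the mouse stomach joins a squamous forestomach to a glandular part that secretes acid, pepsinogen and mucus over a wall of smooth muscle.

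The 12 samples held 14392199 to 17337989 counts each. By these totals 3 counts, taken as the smallest level that can be shown, were 0.173 to 0.208 CPM (counts scaled to a common library size). TMM scaling, used for the levels below, moves this floor in each sample. This floor covers counting error only. Of 54532 genes, 18604 had enough counts to be tested. Levels below are CPM after TMM scaling, which compares a gene between samples but, not being per length, does not compare genes with each other. *Trex1* was at 0 counts throughout, but since *Atrip* overlaps it on that strand, this does not show the genotype.

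The tissue labels were borne out by marker genes. The summed level of 27 cardiac muscle genes was 49970.2 to 80271 CPM in the 6 hearts and 638 to 986 CPM in the 6 stomachs. That of 20 gastric gland secretory genes was 24291 to 176916 CPM in the stomachs. Several libraries stood apart. Heart control replicate 2 held 3907 CPM of gastric gland transcripts and 121 CPM of pancreatic acinar transcripts, against 16.4 to 379 CPM and 4.36 to 14.5 CPM in the other 5 hearts. In the stomach, SN-011 replicate 2 held 20438 CPM of pancreatic acinar transcripts against 1089 to 3409 CPM in the other 5, and control replicate 1 the most gastric gland transcripts, 176916 CPM. Control replicate 1 of both tissues had 7028 and 7843 counts of *Xist* and at most 3 of the Y-linked *Ddx3y*, whereas the other 10 samples had at most 20 of *Xist* and at least 825 of *Ddx3y*. Control replicate 1 thus had the pattern of a female in both tissues, and no SN-011 sample did. The stomach samples also varied more from one another, with a biological coefficient of variation of 40.4% against 21.9% in the heart and 34.4% for both tissues together.

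At an adjusted p under 0.05, the change with SN-011 differed between heart and stomach for 13 of the 18604 genes, or 0.0699% (quasi-likelihood test of edgeR, adjusted by Benjamini-Hochberg). All 13 had a heart change below the stomach change. In all 13, the 3 SN-011 stomachs lay above the 3 control stomachs, an order found for 16.9% of all genes tested. In the heart, 6 of the 13 had all SN-011 samples below all controls, against 14.5% of genes tested, none had all of them above, against 10.3%, and the groups of the other 7 overlapped. The median change of the 13 genes was 2.36 in the stomach and −0.40 in the heart on the log2 scale. These 13 genes were picked by this contrast, so the orders describe them and add no support. A further 491 genes had an adjusted p from 0.05 to 0.10, the first at 0.0546, with 163 heart changes above and 328 below.

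The number depended on the scaling and on how the spread was estimated. With DESeq2's size factors 1 gene passed, and with TMM within each tissue 6 did. With the replicate number as a block 6 passed. All 12 samples count as independent in the fit reported. Taking same-numbered samples of a treatment as 1 mouse, which the labels do not state, gave 0 with mouse as a block (3361 at an unadjusted p under 0.05). With mouse as a random effect in limma-voom 244 passed. The fit reported gives both tissues 1 spread per gene, and the stomach is the noisier tissue. With a weight for each tissue in limma-voom, chosen after seeing the data, 0 genes passed and 3641 had an unadjusted p under 0.05, where the edgeR test gave 3608. With control replicate 1, the samples with *Xist*, left out of both tissues, 152 passed. Leaving out single samples gave 0 to 1041 genes, with 0 without any of 7 samples (2582 to 3232 at an unadjusted p under 0.05), 1 without control replicate 2 of the heart or of the stomach, 485 without stomach control replicate 1, 650 without stomach control replicate 3 and 1041 without stomach SN-011 replicate 2, the library high in pancreatic transcripts. With offsets for GC content and transcript length, also chosen after seeing the data, 3 genes passed. The names below are therefore those at the top of 1 ranking, and no positive difference passed in it.

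**Figure D1:**
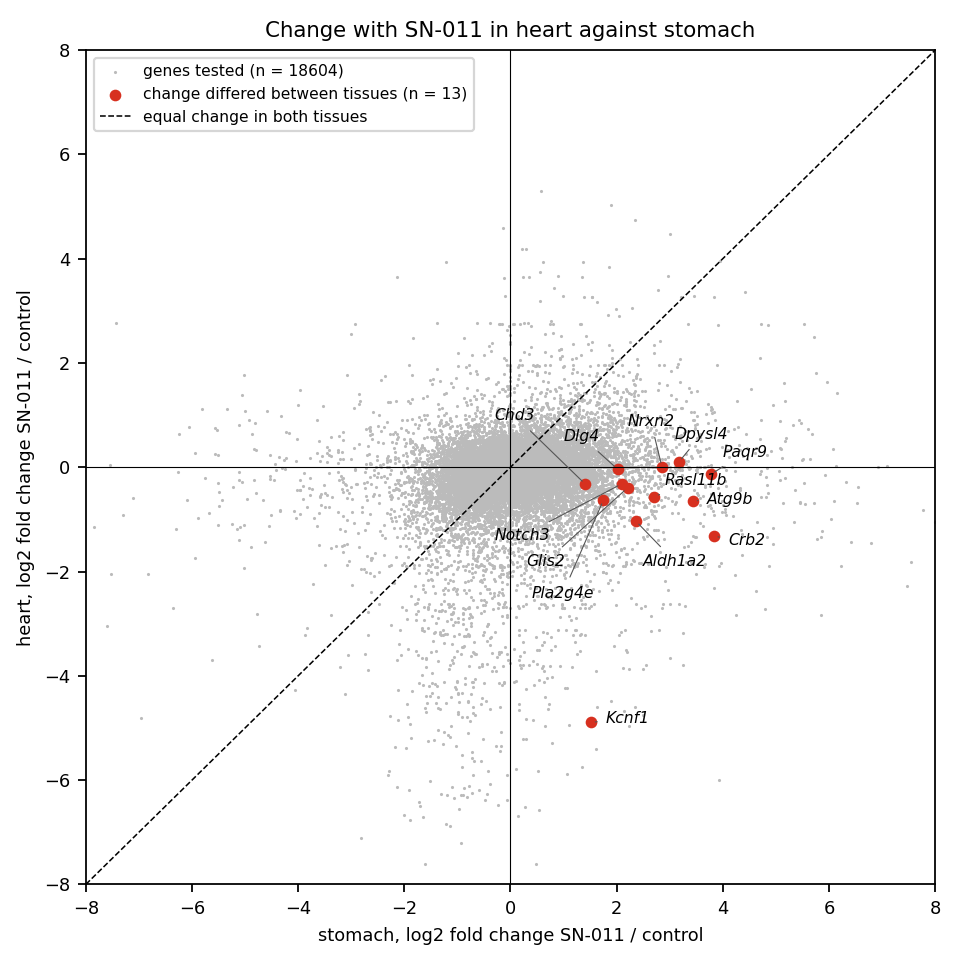
Log2 change with SN-011 in the heart (vertical axis) against the stomach (horizontal axis), 1 point per gene, for the 18604 genes tested; 10 genes lie outside the plotted range. The 13 genes whose changes differed (red) all sit below the dashed line of equal change, and 12 of them lie between −1.32 and 0.10 in the heart.

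The 13 genes are given by what they are known to do, from receptors and regulators to enzymes and channels. *Notch3*, a receptor of Notch signalling that is best known from vascular smooth muscle and pericytes (chromosome 17, 32120820 to 32166852 of GRCm38), was at 3.36, 4.64 and 2.77 CPM in the control stomachs and 18.2, 10.6 and 17.4 CPM after SN-011. In the hearts it was at 34.6, 30.6 and 37.6 CPM and 30.8, 22.5 and 29.3 CPM. The stomach values separated and the heart values overlapped, and the difference of the log2 changes was −2.42 ± 0.36 (SE), adjusted p = 0.0471 in edgeR. *Notch3* overlaps *Gm17276* on the opposite strand. *Aldh1a2*, which makes retinoic acid from retinaldehyde (chromosome 9, 71215789 to 71296243), separated in opposite directions in the 2 organs. Its level was 12.8, 13.8 and 20.2 CPM in control hearts against 6.71, 6.49 and 9.7 CPM in SN-011 hearts, and 5.63, 4.04 and 5.54 CPM in control stomachs against 33.1, 15.4 and 29.5 CPM in SN-011 stomachs. Neither pair of groups overlapped, and the difference was −3.39 ± 0.45 (SE), adjusted p = 0.0389 in edgeR.

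*Crb2*, a Crumbs family protein of apical cell polarity (chromosome 2, 37776249 to 37799103), also separated in opposite directions. It was at 2.58, 1.69 and 3.82 CPM in control hearts and 1.11, 1.54 and 0.586 CPM in SN-011 hearts. In the stomach it was at 0.625, 0.602 and 0.513 CPM in controls and 9.76, 4.39 and 10.7 CPM after SN-011, a difference of −5.15 ± 0.71 (SE), adjusted p = 0.0389 in edgeR. *Glis2*, a Krüppel-like zinc finger transcription factor (chromosome 16, 4594713 to 4624924), was at 4.22, 3.49 and 3.9 CPM in control stomachs and 23.1, 10.9 and 19.5 CPM after SN-011. In the hearts its levels of 25.6, 18.7 and 24.2 CPM and 20.3, 16.5 and 15.3 CPM overlapped, and the difference was −2.60 ± 0.38 (SE) (adjusted p = 0.0471). *Rasl11b*, a small GTPase of the Ras-like family (chromosome 5, 74195286 to 74199481), was at 41.6, 39.2 and 28.9 CPM in control hearts and 27.4, 22.9 and 24 CPM in SN-011 hearts. In the stomach its controls had 5.08, 3.49 and 3.18 CPM and the SN-011 samples 35.4, 16.1 and 24.8 CPM, and with both pairs of groups apart the difference was −3.27 ± 0.41 (SE) (adjusted p = 0.0299).

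*Atg9b*, a paralog of the autophagy scaffold ATG9 (chromosome 5, 24384181 to 24392143), had the smallest p. It was at 2.11, 3.8 and 1.9 CPM in control stomachs and 32.8, 25.4 and 26.6 CPM after SN-011, and at 2, 1.92 and 1.55 CPM in control hearts and 1.38, 0.669 and 1.43 CPM after SN-011. The difference was −4.08 ± 0.50 (SE), adjusted p = 0.0299 in edgeR. *Atg9b* overlaps *Nos3*, the endothelial nitric oxide synthase, on the opposite strand, and the counting is not stated to use strand, so reads of the pair cannot be told apart with certainty. *Nos3*, named after its values were seen, missed the threshold with a difference of −2.08 ± 0.34 (SE), adjusted p = 0.0546 in edgeR. Its stomach levels were 1.17, 1.51 and 2.1 CPM in controls and 10.1, 6.49 and 5.89 CPM after SN-011, against 68.2, 59.3 and 59.7 CPM and 74.4, 63.2 and 66.8 CPM in the heart.

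*Dpysl4*, *Nrxn2* and *Dlg4* are best known from neurons. *Dpysl4*, a dihydropyrimidinase-like protein of neurite growth, had 27 counts in the 3 control stomachs together and 258 after SN-011, while both heart groups had 616 counts. Its difference was −3.07 ± 0.43 (SE), adjusted p = 0.0389 in edgeR. *Nrxn2*, a presynaptic adhesion protein, was at 2.03, 1.57 and 1.9 CPM in control stomachs and 16.9, 10 and 12.8 CPM after SN-011, and its heart groups overlapped. Its difference was −2.85 ± 0.44 (SE) (adjusted p = 0.0471). *Dlg4*, which encodes the synaptic scaffold PSD-95, was at 7.42, 5.96 and 9.13 CPM in control stomachs and 38.5, 24 and 28.9 CPM after SN-011, and its 6 heart values of 15.1 to 17.8 CPM overlapped. *Dlg4* had a difference of −2.06 ± 0.31 (SE).

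*Kcnf1*, a modulatory potassium channel subunit, separated in both organs, in opposite directions. The hearts had 34, 5 and 41 counts in controls and 1, 1 and 0 after SN-011, a ratio of pooled normalized counts of 0.0274 with a 95% counting interval of 0.00327 to 0.102 (exact binomial). All 3 SN-011 hearts lay under the 3-count floor, so the fitted difference of −6.41 rests on 2 counts in them, against 80 in the control hearts. Its stomach levels were 10.7, 5.24 and 8.72 CPM in controls and 32.1, 16.3 and 22 CPM after SN-011. *Paqr9*, a progestin and adipoQ receptor family member, was near the floor in control stomachs, with 6 counts in all against 91 after SN-011, a ratio of 14.7 with a counting interval of 6.49 to 41.0. Its heart levels of 32.3 to 44.1 CPM overlapped. The other 2 genes were *Chd3*, a chromatin remodeller of the NuRD complex, and *Pla2g4e*, a cytosolic phospholipase A2. *Chd3* was at 36.2, 43.3 and 47 CPM in control stomachs and 124, 99.6 and 113 CPM after SN-011 (difference −1.74 ± 0.27 (SE)), and *Pla2g4e* at 6.09, 5.3 and 3.64 CPM and 20.4, 17.1 and 13 CPM (difference −2.38 ± 0.37 (SE)). *Dlg4*, *Chd3* and *Pla2g4e* lay outside the 10 largest differences and are named because so few passed. *Chd3* and *Pla2g4e* each overlap a predicted gene on the same strand, and *Aldh1a2*, *Crb2*, *Glis2* and *Nrxn2* overlap genes on the opposite strand.

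The 13 genes were richer in G and C than most, with a median transcript GC content of 55.3% against 49.7% for all genes tested. Over 5 equal bins of genes by GC content, the median stomach change went from −0.21 in the poorest to 0.39 in the richest, and the median heart change from −0.12 to 0.00. The part of GC content in the 13 differences was not tested beyond the fit with offsets given above, in which *Atg9b* had a difference of −3.58 and *Notch3* of −1.57.

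**Figure D2:**
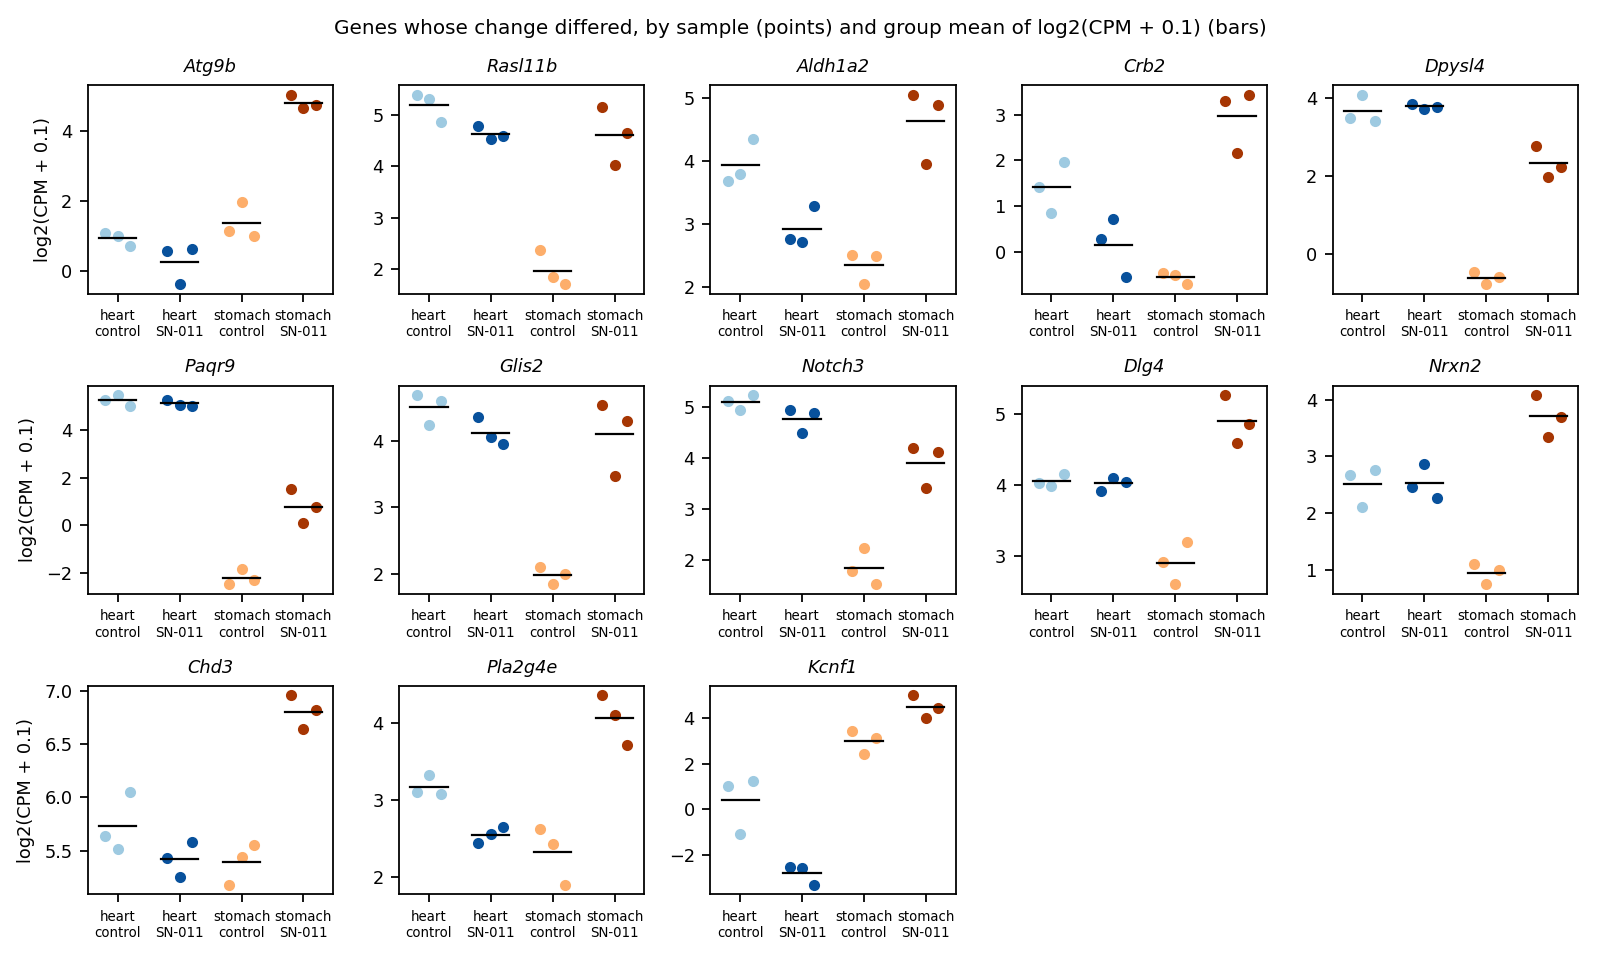
Level of each of the 13 genes, as log2(CPM + 0.1), in the 3 samples of each group (points) with the group mean (bar); each panel has its own vertical scale. In every panel the SN-011 stomachs lie above the control stomachs, while the hearts overlap or lie lower after SN-011.

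At an unadjusted p under 0.05, 1397 genes (7.51%) had a heart change above and 2211 (11.9%) a heart change below the stomach change. These shares are the background for the gene lists that follow, together with the median difference of all genes, −0.11. Among the 3608 genes, the stomach change was the larger in size for 3099, or 85.9%. The 2 organs changed in opposite directions for many of them, with the heart above 0 and the stomach below for 967 and the reverse for 1576. In each tissue by itself, 1 gene (0.00538%) passed in the heart and 3136 (16.9%) in the stomach, 1679 higher and 1457 lower, with the spread shared between tissues. When each tissue was fitted alone, chosen after seeing the data, 137 genes passed in the heart and 0 in the stomach, where 4183 had an unadjusted p under 0.05, so the contrast of 1 gene with 3136 does not hold up when the spread of each tissue is its own. The stomach number was 887 without SN-011 replicate 1, 1131 without SN-011 replicate 3 and 1868 without control replicate 2. The 1 heart gene, named after its values were seen, was the processed pseudogene *Gm7993*, with 180 to 469 counts in control hearts and 2 or 3 after SN-011, and 179 to 1076 counts in control stomachs and 0 or 1 after SN-011. Over the 24 samples of the series, muscle and tongue included, the 12 SN-011 samples had 0 to 33 counts of *Gm7993* and the 12 controls 179 to 1076. The cause was not tested.

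M7core is the 159-gene STING-dependent signature of the study, and all 159 genes could be tested. SN-011 samples had lower levels in most of them in both organs, with 139 changes below 0 in the heart and 130 in the stomach. Of all genes tested, 55.8% and 49.6% were below 0. Heart and stomach had median changes of −0.41 and −0.63, and the median difference was 0.28. At an adjusted p under 0.05, 0 of the 159 differed between the organs in edgeR. DESeq2 gave 10 of the 159, where it gave 1413 of all 18604 genes. At an unadjusted p under 0.05, 22 had the heart change above and 9 below the stomach change, which turned to 5 above and 12 below with library size alone. With scaling by library size alone, which moved the median of all genes from −0.11 to −0.41, the median difference of M7core was 0.01. Relative to the median of all genes, it was 0.40 with TMM and 0.42 with library size alone. The 41 M7core genes in the interferon modules had a median difference of 0.61, 10 of them with p under 0.05 and the heart above, 0 below. The 118 others had a median of 0.22, which turned to −0.08 with library size alone. The M7core gene with the smallest p, *Hap1*, named after its values were seen, lay on the other side, with a difference of −1.73 ± 0.31 (SE) and an adjusted p of 0.0558 in edgeR.

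The 5 genes that the study follows in these tissues had negative changes with SN-011 in both organs, and none passed the test of a difference between the organs in edgeR. None of the 5 passed within the heart either, with adjusted p of 0.352 to 0.824 in edgeR. That fit shares the spread with the noisier stomach. All SN-011 hearts lay below all control hearts for *Cxcl10*, *Mlkl*, *Isg15* and *Ifit3*, an order found for 14.5% of all genes tested. For *Zbp1* the heart groups overlapped. *Isg15* also missed the threshold in the stomach (adjusted p = 0.0674 in edgeR). *Cxcl10*, the chemokine that draws CXCR3+ T cells, was at 91.2, 99.7 and 158 CPM in control hearts and 36.9, 33.1 and 51.7 CPM after SN-011. In the stomach it was at 15.1, 31.1 and 50 CPM and 12.9, 7.63 and 11.3 CPM. The log2 changes were −1.52 and −1.60, with a difference of 0.08 ± 0.53 (SE) (adjusted p = 0.963). For *Mlkl*, the executor of necroptosis, levels were 32, 24.9 and 29.3 CPM against 17.2, 17.1 and 22.6 CPM in the hearts and 79.2, 61.6 and 55.7 CPM against 13.9, 31.5 and 28.4 CPM in the stomachs. Both pairs of groups separated, and the difference was 0.81 ± 0.39 (SE) (adjusted p = 0.275). *Zbp1*, a sensor of Z-form nucleic acid, had changes of −0.69 and −1.08, with a difference of 0.39 ± 0.45 (SE) (adjusted p = 0.678). *Isg15*, a ubiquitin-like modifier, had changes of −0.39 and −1.01, with a difference of 0.62 ± 0.50 (SE) (adjusted p = 0.518). *Ifit3*, an antiviral tetratricopeptide protein, had changes of −0.55 and −0.96, with a difference of 0.41 ± 0.34 (SE) (adjusted p = 0.537).

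Interferon-stimulated genes are switched on through the interferon-stimulated response element, a pair of GAAA repeats. The 10-base motif GAAANNGAAA, on either strand, was looked for in RefSeq promoters of GRCm38.p6 that run from 250 bases before to 50 after the start. It was present for 56 of the 128 M7core genes with a promoter in the table (43.8%) against 1079 of all 27025 genes (3.99%), and for 0 of the 8 genes with one among the 13 above. M7core was itself chosen by the study with data on IRF binding, so its share is not independent of the motif. The windows below show the motif in 3 genes with negative changes in both organs, read 5′ to 3′ on the strand of the gene with the motif in capitals. *Mlkl* had no match in its window. The 3 matches of *Isg15* overlap one another, and the middle one is shown.
Cxcl10 (chr5:92349083-92349112, minus strand, motif from 213 bases before the start): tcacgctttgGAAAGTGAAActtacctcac
Isg15 (chr4:156200871-156200900, minus strand, from 72 bases before the start): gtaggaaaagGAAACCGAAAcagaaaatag
Ifit3 (chr19:34583363-34583392, plus strand, from 156 bases before the start, motif on the other strand): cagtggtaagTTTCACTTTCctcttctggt
Ifit3 (chr19:34583397-34583426, plus strand, from 122 bases before the start, motif on the other strand): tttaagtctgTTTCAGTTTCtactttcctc

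Interferon-induced antiviral genes as a list of 31 tested members were below 0 in both organs in every case, 31 of 31 in the heart and 31 of 31 in the stomach. Their median change was −0.61 in the heart and −1.08 in the stomach, a median difference of 0.62. The difference was positive for 28 of 31 genes, and 6 had an unadjusted p under 0.05 with the heart above, 0 below, while 0 passed the adjustment. With library size alone 0 had p under 0.05, 24 of 31 differences were positive and the median was 0.35, which is 0.76 above the median of all genes, against 0.73 with TMM. *Rsad2*, the antiviral enzyme viperin, was at 249.6, 234 and 288 CPM in control hearts and 154, 124 and 182 CPM after SN-011, and at 95.8, 114 and 116 CPM and 24.9, 29.7 and 39.1 CPM in the stomach. It separated in both organs, and the difference was 1.05 ± 0.30 (SE), adjusted p = 0.107 in edgeR. *Usp18*, which removes ISG15 and damps interferon signalling, had changes of −0.20 and −1.30, with an adjusted p of 0.16 for the difference.

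The neighbouring antigen presentation lists showed the same order of medians without any gene passing. Of 16 MHC class I presentation genes, all were below 0 in both organs, with medians of −0.30 (heart) and −0.77 (stomach), and 5 had p under 0.05 with the heart above. *B2m*, the light chain of MHC class I, was at 3558, 3341 and 3718 CPM in control hearts and 3221, 2982 and 3273 CPM after SN-011, and at 4194, 4468 and 4019 CPM and 1197, 1703 and 1629.8 CPM in the stomach (difference 1.32 ± 0.39 (SE), adjusted p = 0.112). *Psmb8*, a catalytic subunit of the immunoproteasome, had a difference of 1.10 ± 0.39 (SE) (adjusted p = 0.156). The 10 MHC class II genes had medians of −0.44 and −0.90, with 6 of 10 differences above 0. The difference was 0.93 ± 0.40 (SE) for *H2-Ab1* and 0.78 ± 0.36 (SE) for *H2-DMb1*. The 16 interferon-gamma-linked GTPases had medians of −0.63 and −0.98. With library size alone the median difference fell from 0.46 to 0.15 for MHC class I, from 0.44 to 0.10 for class II and from 0.38 to 0.12 for these GTPases. Relative to the median of all genes, these were 0.56, 0.50 and 0.53 with library size alone, against 0.57, 0.55 and 0.49 with TMM. *Irgm1*, a GTPase of defence against intracellular microbes, had a difference of 1.13 ± 0.35 (SE), and the guanylate-binding protein *Gbp5* of −1.03 ± 0.43 (SE), on the other side. The 23 genes of the cGAS-STING pathway itself had medians of −0.20 and −0.02, and 2 of them had p under 0.05 with the heart above and 3 below, among them *Rnaseh2b*, a subunit of RNase H2, at 1.68 ± 0.46 (SE) and the interferon receptor chain *Ifnar2* at −1.23 ± 0.40 (SE).

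**Figure D3:**
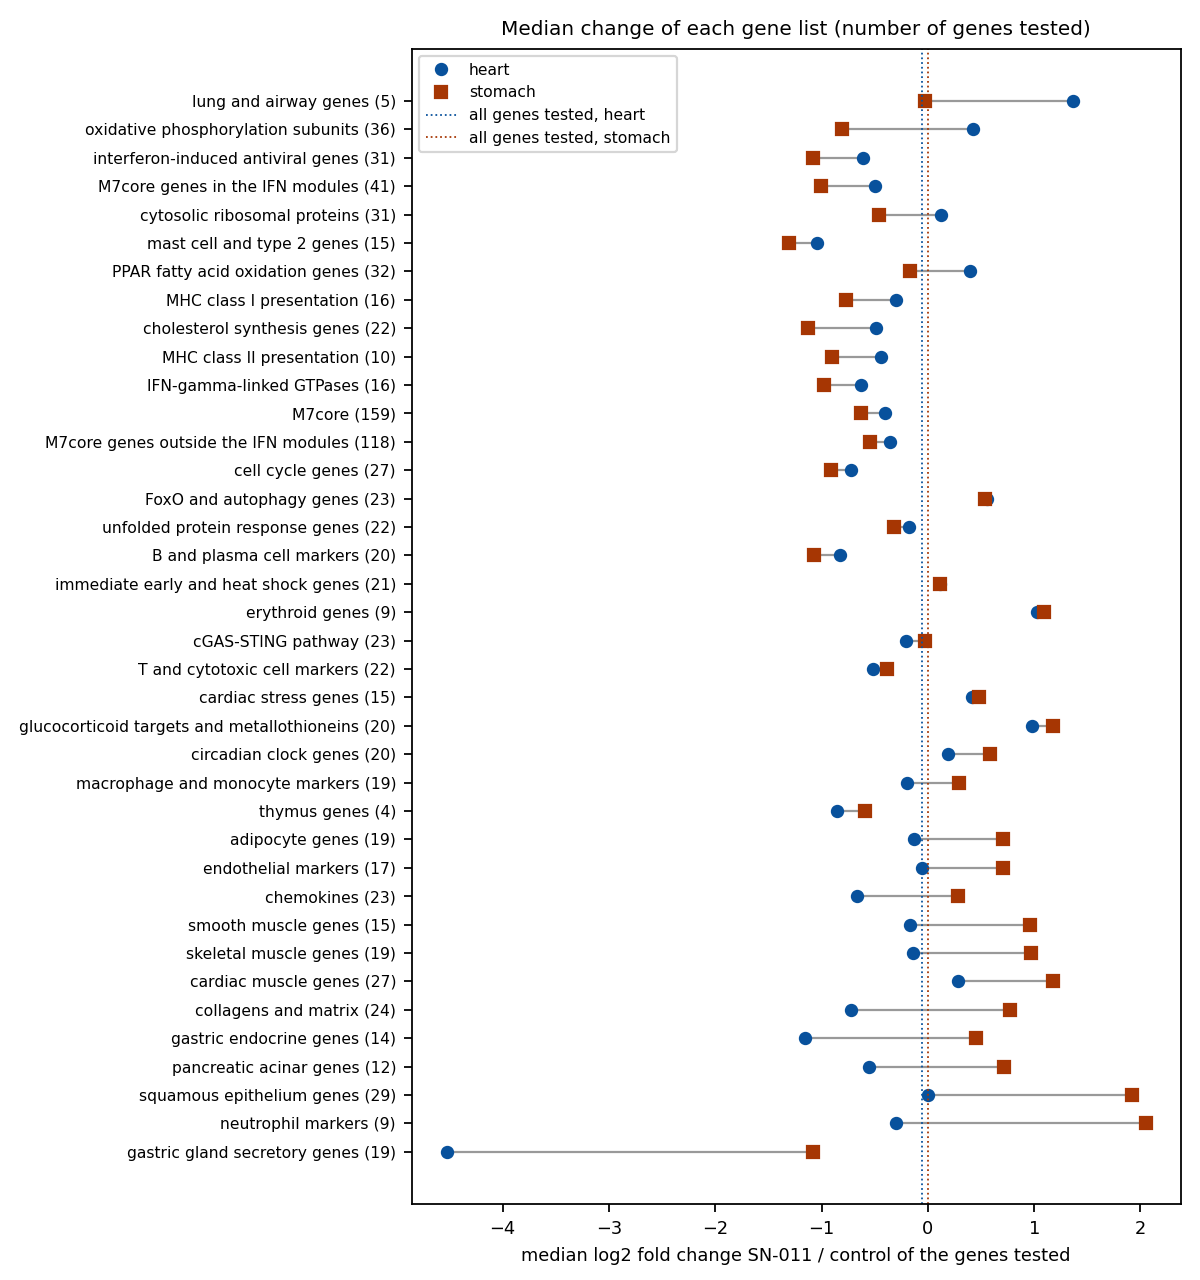
Median log2 change with SN-011 of the tested genes of each list, in the heart (circles) and the stomach (squares), ordered by the median difference; dotted lines are the medians of all genes tested. Oxidative phosphorylation subunits are at 0.42 for the heart and −0.81 for the stomach, and collagens at −0.72 and 0.78.

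Oxidative phosphorylation subunits, the proteins of the mitochondrial respiratory chain and ATP synthase, had medians of opposite sign in the 2 organs. All 36 tested genes were above 0 in the heart, and 35 of 36 were below 0 in the stomach. The median change was 0.42 for the heart and −0.81 for the stomach, and the difference was positive for 36 of 36, with a median of 1.21. At an unadjusted p under 0.05, 28 of 36 had the heart above, against 7.51% of all genes, and 0 had the heart below. After adjustment 0 passed in edgeR, 16 in DESeq2 and 11 in edgeR without stomach SN-011 replicate 2. Over all genes DESeq2 passed 1413 of 18604, and edgeR without that replicate 1041 of 19341. Their summed level was 18675, 23696 and 16628 CPM in control hearts and 26789, 27012 and 23729 CPM after SN-011. In the stomach it was 16165, 11049 and 8481 CPM in controls and 4875, 8726 and 6332 CPM after SN-011. The SN-011 hearts lay above the control hearts, the lowest of them only just, and the stomach groups overlapped, with control replicate 1 highest. Without control replicate 1 of both tissues the median difference was 0.83, and 16 genes had p under 0.05. That number was 17 without stomach SN-011 replicate 1 and 18 without heart control replicate 3. With offsets for GC content and transcript length the median difference was 0.95, and 23 genes had p under 0.05.

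*Sdhd*, which anchors complex II in the membrane, was at 291, 312 and 262 CPM in control hearts and 389, 328 and 339 CPM after SN-011. In the stomach it was at 221, 199.5 and 161 CPM and 72.7, 107 and 102 CPM. The groups separated in opposite directions in the 2 organs, and the difference was 1.34 ± 0.29 (SE), adjusted p = 0.0742 in edgeR. *Ndufs4*, an assembly subunit of complex I, was at 129, 149 and 106 CPM and 169.5, 191 and 163 CPM in the hearts, and at 253, 160.2 and 156 CPM and 50.5, 105 and 69.1 CPM in the stomachs. It too separated in opposite directions, with a difference of 1.79 ± 0.39 (SE) (adjusted p = 0.0742).

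Genes of fatty acid oxidation and of PPAR signalling, which feed the respiratory chain, followed in part. Of 32 tested, 31 were above 0 in the heart with a median of 0.39, whereas 19 were below 0 in the stomach with a median of −0.17. At an unadjusted p under 0.05, 11 had the heart above and 2 below, with a median difference of 0.49. Without control replicate 1 of both tissues these numbers were 5 and 5, with a median difference of 0.34. With library size alone they were 9 and 5, with a median difference of 0.13. That is 0.53 above the median of all genes, against 0.60 with TMM. *Acadl*, the long-chain acyl-CoA dehydrogenase, was at 309, 285 and 299 CPM in control stomachs and 118, 205 and 160.2 CPM after SN-011, and its heart groups overlapped (difference 1.2 ± 0.36 (SE), adjusted p = 0.112). *Angptl4*, a PPAR target that inhibits lipoprotein lipase, went the other way, at 22.6, 9.34 and 8.97 CPM in control stomachs and 109.7, 66.7 and 94.2 CPM after SN-011 with overlapping hearts (difference −2.37 ± 0.55 (SE), adjusted p = 0.0787). All 31 cytosolic ribosomal protein genes had a positive difference, with medians of 0.12 in the heart and −0.46 in the stomach, but only 2 had p under 0.05, among them *Rpl7* at 0.81 ± 0.33 (SE). Of 22 cholesterol synthesis genes, 20 were below 0 in each organ, with medians of −0.49 and −1.13. *Msmo1*, a sterol methyl oxidase, was at 13.6, 16.9 and 14.1 CPM against 9.55, 9.7 and 8.66 CPM in the hearts and 174, 115 and 138 CPM against 25.1, 64.9 and 32.1 CPM in the stomachs, a difference of 1.13 ± 0.43 (SE) (adjusted p = 0.181), and *Fdft1*, squalene synthase, had a difference of 1.33 ± 0.52 (SE).

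Collagens and other matrix genes ran the opposite way. Of 24 tested, 23 were below 0 in the heart and 23 above 0 in the stomach, with median changes of −0.72 and 0.78. The difference was negative for all 24, with a median of −1.34, and 17 had an unadjusted p under 0.05 with the heart below, against 11.9% of all genes. After adjustment 0 passed in edgeR, 5 in DESeq2 and 11 in edgeR without stomach SN-011 replicate 2. Of all genes, 1413 of 18604 passed in DESeq2 and 1041 of 19341 in edgeR without that replicate. Of the 24, the number with an unadjusted p under 0.05 was 8 without stomach SN-011 replicate 1, where the median was −0.95, 10 without heart control replicate 1 and 11 without heart SN-011 replicate 1 or 2. Their summed level was 10181, 7269 and 7296 CPM in control hearts and 5750.1, 5405 and 6739 CPM after SN-011, without overlap. In the stomach it was 3618, 2241 and 3286 CPM in controls and 7151, 2563 and 5149 CPM after SN-011, with SN-011 replicate 2 among the controls. *Col5a1*, a fibril-forming collagen chain, was at 150.0, 102 and 88.7 CPM against 62.2, 58.7 and 78.7 CPM in the hearts, with a difference of −1.79 ± 0.48 (SE) (adjusted p = 0.101). *Fn1*, fibronectin, was at 344, 202 and 308 CPM against 186, 198 and 192 CPM in the hearts and 344, 119 and 265 CPM against 736, 498 and 478 CPM in the stomachs. It separated in both organs in opposite directions, with a difference of −1.80 ± 0.49 (SE) (adjusted p = 0.103). *Tgfb3*, a TGF-beta ligand that drives matrix synthesis, was named after its values were seen. It was at 2.81, 2.65 and 3.74 CPM in control stomachs and 33.3, 9.86 and 20.9 CPM after SN-011, with overlapping hearts and a difference of −2.96 ± 0.48 (SE) (adjusted p = 0.0546).

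In bulk tissue, fewer cells of a type and less RNA per cell cannot be told apart, so marker genes of the stomach wall are given beside these lists. Of 15 smooth muscle genes, all were above 0 in the stomach, with a median change of 0.96, against −0.17 in the heart, and 5 had p under 0.05 with the heart below. The summed smooth muscle level was 12876, 2399 and 4823 CPM in control stomachs and 18019, 9389.6 and 11008 CPM after SN-011, with control replicate 1 within the SN-011 range. *Myocd*, the coactivator of smooth muscle and cardiac genes, had a difference of −2.17 ± 0.64 (SE) and *Mylk*, myosin light chain kinase, of −1.33 ± 0.50 (SE). Of 17 endothelial markers, 15 were above 0 in the stomach, with a median of 0.71 against −0.05 in the heart, and 7 had p under 0.05 with the heart below. *Tie1*, an endothelial receptor kinase, was at 7.73, 5.66 and 11.4 CPM in control stomachs and 22.5, 17.6 and 18.7 CPM after SN-011, with overlapping hearts (difference −1.29 ± 0.32 (SE), adjusted p = 0.0854). *Selp*, P-selectin, was at 6.93, 2.5 and 4.65 CPM in control hearts and 2.14, 1.2 and 1.5 CPM after SN-011, and had 7 counts in the 3 control stomachs against 71 after SN-011 (difference −4.82 ± 1.01 (SE), adjusted p = 0.0695). *Kit*, the receptor of mast cells and of the interstitial cells that pace the gut, separated in opposite directions, at 9.05, 9.21 and 11.8 CPM against 4.84, 3.61 and 5.01 CPM in the hearts and 13.6, 26.4 and 32.1 CPM against 47.4, 34.7 and 41.7 CPM in the stomachs (difference −1.93 ± 0.41 (SE), adjusted p = 0.0698). *Kit* came from the list of mast cell and type 2 genes, of which 13 of 15 tested were below 0 in the stomach. The part of tissue composition in the differences above was not tested.

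**Figure D4:**
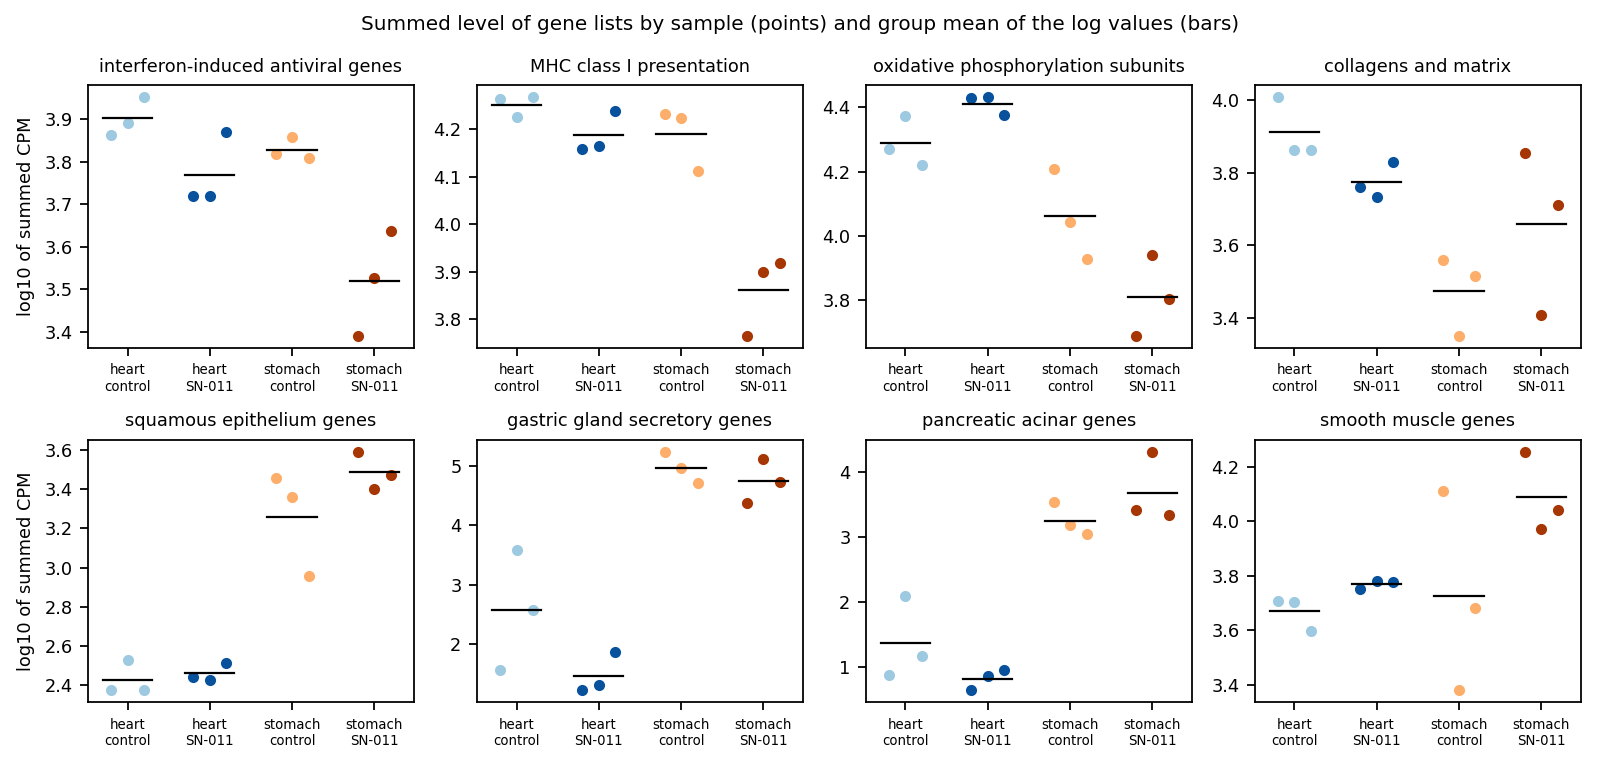
Summed CPM of 8 gene lists on a log10 scale, with 1 point per sample and a bar at the mean of the log values in each group; each panel has its own vertical scale. Oxidative phosphorylation is higher in the SN-011 hearts, and gastric gland transcripts stand out in heart control replicate 2 at 3907 CPM.

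The epithelial lists had large median changes in the stomach, but their summed levels overlapped between its groups. Of 29 squamous epithelium genes, which mark the forestomach, 25 were above 0 in the stomach with a median change of 1.92, and 18 of these passed in the stomach with the spread shared between tissues, where 16.9% of all genes passed. With the stomach fitted alone 0 of all genes passed, as given above. Of the 29, 10 had 0 counts in all samples of at least 1 heart group, and with genes at their bound of 3 counts per library the median stomach change was 1.92 and the median difference, over 19 genes, −2.02. The summed level was 2856, 2281 and 904 CPM in control stomachs and 3909, 2515 and 2969 CPM after SN-011, which overlapped. *Trp63*, the transcription factor of squamous basal cells, was at 5, 4.7 and 4.77 CPM in control stomachs and 35.6, 10.9 and 20.2 CPM after SN-011 (difference −2.14 ± 0.53 (SE), adjusted p = 0.0854). *Ppl*, the desmosome and envelope protein periplakin, was at 13.8, 16.6 and 13 CPM and 73, 31.5 and 59.3 CPM (difference −1.91 ± 0.45 (SE), adjusted p = 0.0816). The hearts overlapped for both genes.

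The 19 tested gastric gland genes had median changes of −4.53 for the heart and −1.08 for the stomach. The heart controls include replicate 2 with its 3907 CPM of gastric gland transcripts. For *Pgc*, progastricsin, the hearts had 13.6, 1919 and 181 CPM in controls and 3.46, 3.28 and 13.6 CPM after SN-011, and the stomachs 56602, 27733 and 18367 CPM and 14465, 78902 and 20426 CPM, which overlapped. *Muc6*, the mucin of gland cells, had a difference of −6.22 ± 1.91 (SE) (adjusted p = 0.122), with hearts at 1.32, 207 and 13.3 CPM and 1.31, 0.669 and 7.09 CPM. *Atp4a*, the proton pump of parietal cells, named after its values were seen, separated in the stomach at 3022, 3206 and 3249.9 CPM in controls and 1045, 2226 and 1552 CPM after SN-011. The 14 gastric endocrine genes had medians of −1.16 and 0.45, and *Chga*, chromogranin A, was at 0.802, 35.9 and 2.1 CPM in control hearts, and *Ghrl*, ghrelin, at 0.974, 13.6 and 0.774 CPM. Without heart control replicate 2, the median difference of the gastric gland genes was −1.03 and that of the endocrine genes −1.22. The 12 pancreatic acinar genes had medians of −0.55 and 0.71, and *Clps*, colipase, was at 2966, 1216 and 978 CPM in control stomachs and 2452, 19886 and 1880.2 CPM after SN-011.

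Muscle genes were compared as a check on striated muscle in the stomach wall. The 27 cardiac muscle genes had medians of 0.29 in the heart and 1.18 in the stomach, where their summed level of 638 to 986 CPM overlapped between groups. *Nkx2-5*, a homeobox factor of the heart that is also active at the pylorus, was at 137, 161 and 113 CPM in control hearts and 166, 190.2 and 157 CPM after SN-011. The stomachs had 5 counts of it in the 3 controls and 95 after SN-011, a ratio of 18.4 with a counting interval of 7.61 to 57.9 (difference −3.74 ± 0.79 (SE), adjusted p = 0.069). *Gja1*, connexin 43, had a difference of −1.68 ± 0.45 (SE). The 15 cardiac stress genes had medians of 0.41 and 0.48, with −3.05 ± 0.76 (SE) for the intercalated disc protein *Xirp1* and 1.64 ± 0.44 (SE) for the growth factor *Hbegf*. The 19 skeletal muscle genes had medians of −0.14 and 0.97 and none with p under 0.05. The 19 adipocyte genes had medians of −0.13 and 0.70, with −1.23 ± 0.33 (SE) for the lipid droplet protein *Cidea* and 1.97 ± 0.69 (SE) for *Pparg*.

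Immune cell markers differed by cell type. The 9 neutrophil markers were all above 0 in the stomach, with a median change of 2.05 against −0.30 in the heart, and 5 had p under 0.05 with the heart below. With the gene at 0 in a group held at its bound, the stomach median was 1.74. *Csf3r*, the receptor of granulocyte colony-stimulating factor, was at 1.72, 2.29 and 3.08 CPM in control stomachs and 10.5, 5.02 and 8.08 CPM after SN-011 with overlapping hearts (difference −2.03 ± 0.50 (SE), adjusted p = 0.0853), and *Mmp9* had a difference of −2.97 ± 0.93 (SE). The summed neutrophil level was 17.2, 21.9 and 18.5 CPM in control stomachs and 61.9, 32.9 and 45.3 CPM after SN-011. In the heart the same sum, over all 14 markers listed, was 60.3, 29.98 and 57.4 CPM in controls and 83.7, 73.9 and 79.3 CPM after SN-011, so that in both organs every SN-011 sample lay above every control, while 5 of the 9 tested markers were below 0 in the heart. Of 19 macrophage and monocyte markers, 13 were above 0 in the stomach with a median of 0.29, against −0.20 in the heart. *Itgam*, the integrin CD11b, was at 2.5, 1.69 and 3.95 CPM in control stomachs and 35.3, 3.75 and 20.8 CPM after SN-011, and the monocyte gene *Ly6c2* had a difference of 1.22 ± 0.44 (SE) in the other direction. Of 23 chemokines and receptors, 22 were below 0 in the heart with a median of −0.67, and 12 above 0 in the stomach with a median of 0.28. *Ccl3*, a chemokine of macrophages, was at 10.7, 7.29 and 18 CPM in control hearts and 3.46, 5.55 and 5.14 CPM after SN-011, without overlap, and at 0.703, 1.33 and 0.205 CPM and 3.53, 1.08 and 2.48 CPM in the stomach (difference −3.02 ± 0.83 (SE), adjusted p = 0.103).

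Lymphocyte lists had negative medians in both organs. The 22 T and cytotoxic cell markers had medians of −0.52 for the heart and −0.38 for the stomach. Of their differences 12 of 22 were below 0, near the 55.3% of all genes, with a median of −0.09. The 2 with p under 0.05 both had the heart above. *Gzma*, granzyme A, was at 5.16, 2.53 and 2.97 CPM in control stomachs and 0.729, 0.382 and 0.472 CPM after SN-011, with overlapping hearts of 19, 7.29 and 15.4 CPM and 10.2, 7.83 and 10.4 CPM (difference 2.16 ± 0.59 (SE), adjusted p = 0.102), and *Nkg7* had a difference of 0.87 ± 0.39 (SE). The 20 B and plasma cell markers had medians of −0.82 and −1.07, with 0 below an unadjusted p of 0.05, and *Jchain*, which joins secreted antibodies, was at 248, 616 and 381 CPM in control stomachs and 104, 104 and 158 CPM after SN-011. The 15 mast cell and type 2 genes had medians of −1.04 and −1.31, and 13 of them were below 0 in the stomach, unlike *Kit*, given above. The 9 erythroid genes, a sign of blood in the tissue, had medians of 1.03 and 1.10, and 6 of the 9 differences were below 0, with a median of −0.06. The 2 with the smallest p went against the list, with stomach changes of −0.87 for *Bpgm* and −0.76 for *Fech* where 7 of 9 were above 0, and differences of 1.31 ± 0.39 (SE) for *Bpgm* and 0.87 ± 0.27 (SE) for *Fech*. The 4 thymus genes had medians of −0.85 and −0.59, and the 5 lung and airway genes 1.36 and −0.02. The leading genes of the lists with little signal, *Tnni2*, *Mybpc1*, *Cpb1*, *Ighg1*, *Ms4a2*, *Ager*, *Scgb1a1*, *Tcf7* and *Cd1d1*, had adjusted p from 0.239 to 0.749.

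In the other programmes no gene passed for a difference. The 20 glucocorticoid targets and metallothioneins had medians of 0.98 in the heart and 1.18 in the stomach, with 19 and 15 above 0. Within the list the smallest p of the difference were those of *Klf9*, a glucocorticoid-induced zinc finger factor, at 5.94, 8.43 and 5.54 CPM in control stomachs and 21.3, 19.2 and 18.7 CPM after SN-011 with overlapping hearts (difference −1.57 ± 0.42 (SE), adjusted p = 0.101), and of *Mt1*, metallothionein 1, at 614, 446 and 282 CPM against 1168, 1540.4 and 1143 CPM in the hearts (difference 2.33 ± 0.78 (SE), adjusted p = 0.144). The 23 FoxO and autophagy genes were all above 0 in the heart and 18 of them in the stomach, with medians of 0.56 and 0.53. *Irs2*, an insulin receptor substrate that FoxO factors induce, was at 19.9, 35.3 and 11 CPM in control hearts and 65, 62.8 and 79.6 CPM after SN-011, and at 36.6, 35.1 and 34.9 CPM and 36.2, 39.6 and 30.9 CPM in the stomach. It separated in the heart and overlapped in the stomach (difference 1.65 ± 0.44 (SE), adjusted p = 0.101), and *Cdkn1a*, the cell cycle inhibitor p21, had a difference of 1.44 ± 0.58 (SE). All 27 cell cycle genes were below 0 in the heart and 26 in the stomach, with medians of −0.72 and −0.91, and *Ccnb2*, a mitotic cyclin, and *Birc5*, survivin, had differences of 1.23 ± 0.46 (SE) and 1.02 ± 0.39 (SE).

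The 20 circadian clock genes had medians of 0.19 and 0.59. *Hlf*, an output transcription factor of the clock, had a difference of −2.22 ± 0.52 (SE). The 22 genes of the unfolded protein response had medians of −0.17 and −0.31. *Herpud1*, which acts in degradation of proteins from the endoplasmic reticulum, was at 203, 210.0 and 126 CPM in control hearts and 414, 476 and 507 CPM after SN-011, while its stomach groups overlapped (difference 1.68 ± 0.50 (SE), adjusted p = 0.113), and *Ddit3* had a difference of −0.84 ± 0.29 (SE). The 21 immediate early and heat shock genes, which respond to handling of the tissue, had medians of 0.11 and 0.12, with *Hsph1* at −1.33 ± 0.43 (SE) and *Atf3* at 1.2 ± 0.55 (SE).

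The muscle and tongue of the series were placed beside the heart and stomach in a fit of all 24 samples. Muscle SN-011 replicate 2 stood apart, with 11546 genes with counts against 19798 to 21387 in the other 5 muscle samples. For the 13 genes the median changes of heart, stomach, muscle and tongue were −0.37, 2.33, −0.17 and 0.14. The median change of the oxidative phosphorylation subunits was 0.45, −0.84, 0.27 and 0.09 in the same order, and that of the collagens −0.69, 0.75, −0.95 and −0.30. For the interferon-induced antiviral genes it was −0.58, −1.11, −1.04 and −0.77. For the respiratory chain and the collagens the stomach median had the opposite sign to the other 3 tissues, and for the antiviral genes all 4 medians were negative. Without that library the muscle medians were −0.28 for the 13 genes, 0.22 for oxidative phosphorylation, −0.97 for the collagens, −0.85 for the antiviral genes and −0.05 for all genes. These medians are a description without a test, and with all 24 samples the medians of all genes were −0.03, −0.02, −0.21 and −0.02.

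**Figure D5:**
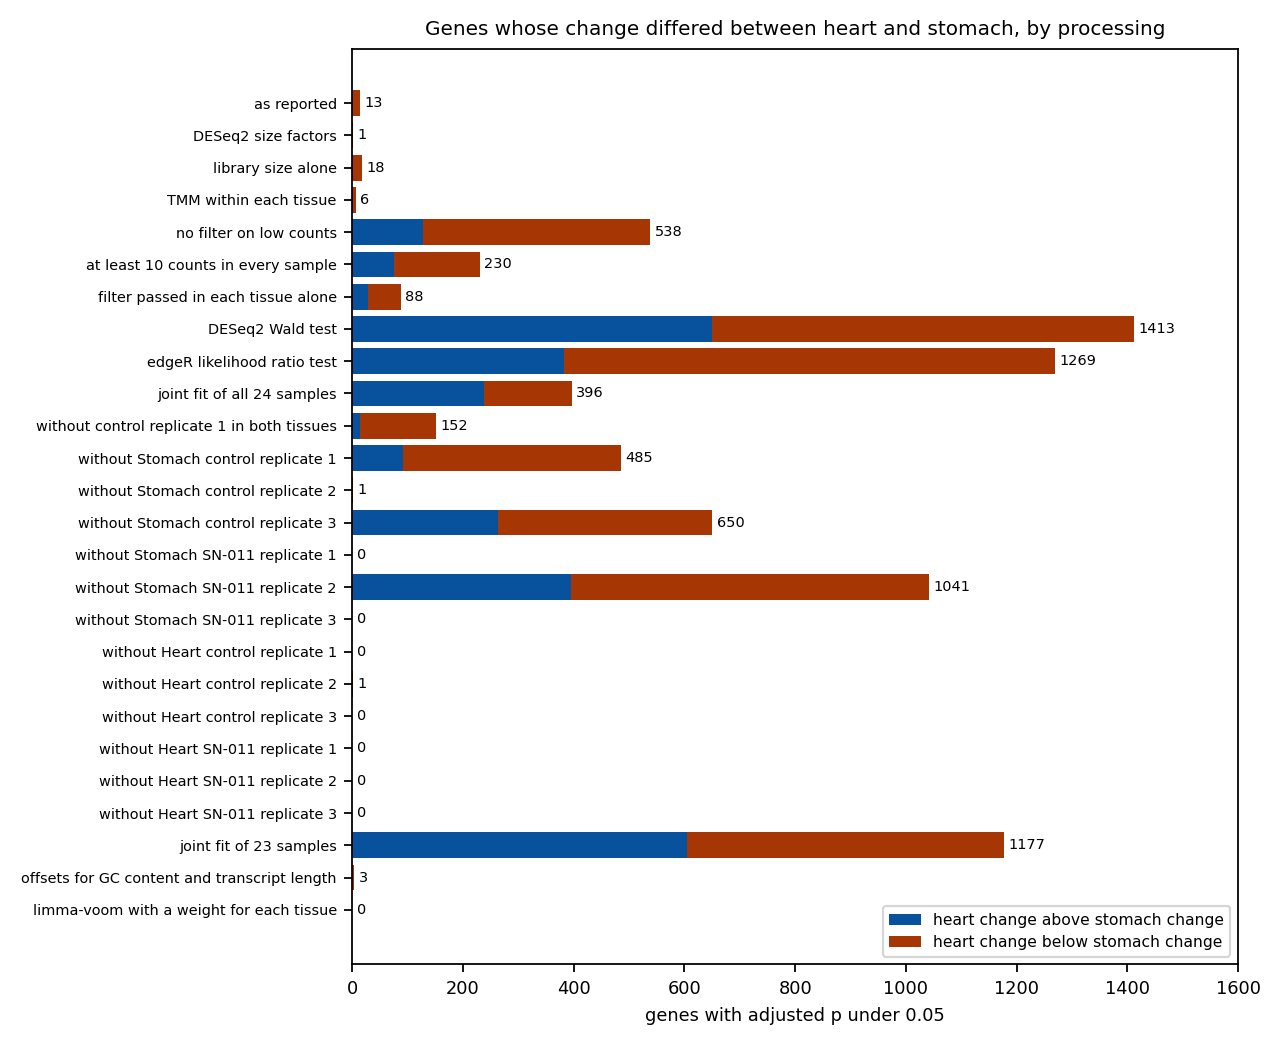
Number of genes whose change differed between heart and stomach at an adjusted p under 0.05, split by direction (bars start at 0). The ways of processing shown leave out the fits with the replicate number or the mouse as a block. Those fits gave 6 genes with the replicate number and 0 with the mouse. The mouse block with offsets for GC content and transcript length gave 0, and limma-voom with mouse as a random effect 244. The count reported is 13, single samples left out gave 0 to 1041, and the fit with a weight for each tissue gave 0; the fit of 23 samples, which leaves out muscle SN-011 replicate 2, gave 1177.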

How the data were processed

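RNA-Seq of the heart and stomach of *Trex1*-/- mice given SN-011 or control was analysed, with 3 samples in each of 4 groups that follow the labels. Per the study's methods, libraries were strand-specific and made from poly(A) RNA, and the tools were Trimmomatic for trimming, hisat2 for mapping and featureCounts for counting. The submitters' processing notes name HISAT2, HTSeq and mm10, so the counter is uncertain, and a strand setting for counting is not given in the sources used here. The authors deposited raw counts per gene, without normalization, for 54532 genes, of which 54495 identifiers are in GENCODE M21 of GRCm38, used for symbols and positions.

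The 12 samples were fitted together in edgeR 4.0.16 (R 4.3.3), with 1 coefficient per group, TMM scaling and the quasi-likelihood test on 8 residual degrees of freedom. The filter was filterByExpr with a minimum of 10 counts and 15 in total, and the prior count was 0.125. The interaction and the change within each tissue were tested over all 18604 genes, with Benjamini-Hochberg adjustment and a threshold of 0.05. The method was checked on simulated data with 1 spread per gene for both tissues and no effect of mouse. This check cannot speak for tissues of unequal spread or for samples that share a mouse. The labels do not say whether the samples of a group are from separate litters, so p-values measure only the spread between these samples.

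The contrast and the gene lists were chosen with earlier results of these data known. Named genes were the 10 largest passing differences in each direction with at least 1 CPM in a group of each tissue and no predicted symbol, the 2 smallest p of each of 35 lists (up to 4 where any passed), and *Cxcl10*, *Mlkl*, *Zbp1*, *Isg15* and *Ifit3*. Other genes are said to have been named after their values were seen. *Dlg4*, *Chd3* and *Pla2g4e* are among these. Of the list members 2 were not matched to a gene. Some genes that this rule names are not reported here.

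The settings varied were scaling by library size alone or by DESeq2's size factors, TMM within each tissue, 3 other filters on low counts, DESeq2 1.42.0, edgeR's likelihood ratio test, limma-voom (limma 3.58.1) with mouse as a random effect, all 24 samples, the replicate number or the mouse as a block, a log2 difference of at least 1, and samples left out. Offsets for GC content and transcript length, a weight for each tissue, each tissue fitted alone and the 24-sample fit without 1 muscle library were added after seeing the data. Promoters came from RefSeq. Python 3.11.15, pandas 2.3.3, numpy 2.4.6 and matplotlib 3.10.9 were used for tables and figures.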

Additional observations from a re-analysis of the deposited data

Results flagged for a closer look

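For 13 genes the test of the difference itself passed, with a difference (heart change minus stomach change) of −6.41 for *Kcnf1*, −5.15 for *Crb2*, −4.08 for *Atg9b*, −3.91 for *Paqr9*, −3.39 for *Aldh1a2*, −3.27 for *Rasl11b*, −3.07 for *Dpysl4*, −2.85 for *Nrxn2*, −2.60 for *Glis2*, −2.42 for *Notch3*, −2.38 for *Pla2g4e*, −2.06 for *Dlg4* and −1.74 for *Chd3* on the log2 scale. The test was the interaction in edgeR, with adjusted p of 0.0299 to 0.0471. Of the 13 genes, *Atg9b* passed under the most alternatives, 4 of the 12 that leave out a single sample and 14 of the 17 others in which it was tested.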

How the results depend on the processing

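The number of genes whose change differed, 13 as reported, was 1 with DESeq2's size factors, 6 with TMM within each tissue, 538 without a filter, 230 with at least 10 counts in every sample, 88 with the filter passed in each tissue, 1413 with DESeq2's Wald test, 1269 with edgeR's likelihood ratio test, 396 in the fit of all 24 samples, 1177 in that fit without muscle SN-011 replicate 2 (23 samples, chosen after seeing the data) and 152 without control replicate 1 of both tissues. It was 3 with offsets for GC content and transcript length and 0 with a weight for each tissue (3641 at an unadjusted p under 0.05). Leaving out single samples gave 0 to 1041. None of the 13 genes passed under every alternative, and their differences were negative under each alternative that tested them. The genes changed in the heart, 1 as reported, were 3 with TMM within each tissue, 189 without a filter, 0 with at least 10 counts in every sample (1156 at an unadjusted p under 0.05), 3 with the filter passed in each tissue, 241 with DESeq2, 264 with the likelihood ratio test, 6 without control replicate 1, 330 with a weight for each tissue, 137 with the heart alone, 12 with 23 samples and 0 to 6 without single samples. The genes changed in the stomach, 3136 as reported, were 1216 with a weight for each tissue, 0 with the stomach alone (4183 at an unadjusted p under 0.05), 1996 with a log2 change of at least 1, 4891 with 23 samples, and 887 without SN-011 replicate 1 to 4311 without SN-011 replicate 2. The M7core genes whose change differed, 0 as reported, were 2 without a filter, 2 with at least 10 counts, 1 with the filter in each tissue, 10 with DESeq2, 7 with the likelihood ratio test, 3 with all 24 samples, 12 with 23, 2 without control replicate 1 and 0 to 7 without single samples. The median difference of M7core fell from 0.28 to 0.013 with library size alone, and that of the oxidative phosphorylation subunits from 1.21 to 0.83 without control replicate 1. Without single samples, these medians were 0.19 to 0.39 for M7core, 0.89 to 1.48 for oxidative phosphorylation and −1.67 to −0.95 for the collagens. Among the other lists, 933 of 1015 medians moved by less than the spread between replicates. Of 2695 values of named genes under alternatives, 2683 had the sign reported. The count of differing genes was 485 without stomach control replicate 1, 650 without stomach control replicate 3 and 1041 without stomach SN-011 replicate 2, and that of M7core genes 7, 2 and 6. For these changes the cause was not tested.

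The replicate numbers are not stated to mark 1 mouse. Control replicate 1 was the sample with *Xist* in the heart (7028 counts) and stomach (7843), and also in the muscle (3060) and tongue (13811). The other muscle and tongue samples had at most 5 counts of *Xist*. The fit reported takes the 12 samples as independent. Between the tissues, same-numbered samples of a treatment had deviations from their group means that correlated at 0.04 to 0.30 over 10606 genes, 4 of 6 pairs above 0.1, against −0.30 to 0.11 for other numbers, and 11 of 12 comparisons were highest with their own number. With the number as a replicate block 6 genes differed, with a replicate block by mouse 0 (3361 at an unadjusted p under 0.05), with that block and offsets for GC content and length 0 (3256), and with mouse as a random replicate block in limma-voom 244 genes, 2 M7core genes and 3 heart genes.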
